A study of Mus musculus with 384 samples.

Results

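The genes described here are 38 genes of protein folding, protein entry and stress signalling in the endoplasmic reticulum (ER), out of 46078 gene rows in the count tables. They were taken by name, not by their values, and each has its own Ensembl row. By role they are 11 chaperones and their helpers, 6 oxidoreductases and prolyl isomerases, 7 stress sensors and transcription factors, 4 genes of ER-associated degradation, 7 genes of translocation and 3 signal peptidase subunits.

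Single granulocyte/macrophage progenitors (GMPs), marrow precursors of neutrophils and monocytes, were sorted from C57Bl/6 mice as lin-/c-Kit+/Sca-1-/CD34+/FcγR+ cells, 1 cell per well of a 96-well plate. In the BCR-ABL sets the mice were Scl-tTA::TRE-BCR/ABL, in which a transactivator driven by Scl, a regulator of blood stem and progenitor cells, turns on BCR/ABL, the fusion oncogene of chronic myeloid leukaemia, once doxycycline is withdrawn. They drank doxycycline at 20 mg/L until withdrawal at 5 weeks of age and were analysed 5 to 6 weeks later. The control wells carry the same doxycycline, withdrawal age and analysis time in their sample entries. Their treatment label reads only control, so the genotype is not given, nor do the labels say whether a set is 1 animal or several. After wells with under 50000 reads on genes or under 1000 genes were left out, 76, 61 and 92 cells remained in BCR-ABL replicates 1, 2 and 4, against 94 in the control set, 323 of 384 wells.

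The ER receives proteins that are to be secreted or stored in granules. They enter through the SEC61 channel, lose their signal peptide, fold with the help of chaperones and disulfide isomerases, and are sent for degradation if folding fails. When unfolded protein builds up, the sensors IRE1 (gene Ern1), PERK (Eif2ak3) and ATF6 start the unfolded protein response, in which XBP1, ATF4 and cleaved ATF6 raise the transcription of chaperone and degradation genes. GMPs on the neutrophil path make large amounts of granule proteases, which pass through this system.

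ATF6 and NF-Y act on the ER stress element, CCAAT and CCACG held 9 bases apart. It is shown here because 8 of the 32 genes with a promoter in the RefSeq table (GRCm38.p6) carried it within 250 bases before to 50 bases after the start on either strand, a share of 25%, against 37 of 27025 promoters of all genes (0.137%), which include these 8. Capitals mark CCAAT and CCACG, each element is written along its own strand, and the distance runs from its outermost base to the gene start.
Hspa5, chr2:34772025-34772043, 65 bases before the start: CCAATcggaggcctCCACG
Hsp90b1, chr10:86705638-86705656, 212 bases before the start: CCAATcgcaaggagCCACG
Hsp90b1, chr10:86705533-86705551, 107 bases before the start, opposite strand: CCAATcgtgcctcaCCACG
Dnajc3, chr14:118937827-118937845, 105 bases before the start: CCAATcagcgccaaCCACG
Creld2, chr15:88819520-88819538, 126 bases before the start, opposite strand: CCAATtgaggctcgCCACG
Calr, chr8:84847075-84847093, 162 bases before the start, opposite strand: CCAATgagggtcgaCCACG
Canx, chr11:50325800-50325818, 145 bases before the start: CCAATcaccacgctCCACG
Pdia6, chr12:17266491-17266509, 98 bases before the start: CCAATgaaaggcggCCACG
Syvn1, chr19:6046532-6046550, 44 bases before the start: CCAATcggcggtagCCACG
The gap differed in sequence between all 9 elements and held 6 or 7 G or C bases. Alone, CCAAT stood in 75% of the 32 promoters and 41.1% of all promoters, and CCACG in 75% and 35.5%. The XBP1 and ATF6 element TGACGTGG was found in 1 of the 32 (Txndc5, in 1 of its 3 promoter rows), against 0.714% of all promoters, and the amino acid response element TGATGNAAN, to which ATF4 binds, in 3 (Txndc5, Trib3 and Herpud1), against 4.5%. The ER promoters had a median GC content of 63.2%, against 52.7% for all promoters, and shorter motifs are read beside that difference. Hyou1, Manf, Atf6, Sec61a1, Ssr2 and Sec11c had no entry in the table. The 250 bases before the Hspa5 start (chr2:34771840-34772089, plus strand) show the element in place, in capitals.
Hspa5 upstream: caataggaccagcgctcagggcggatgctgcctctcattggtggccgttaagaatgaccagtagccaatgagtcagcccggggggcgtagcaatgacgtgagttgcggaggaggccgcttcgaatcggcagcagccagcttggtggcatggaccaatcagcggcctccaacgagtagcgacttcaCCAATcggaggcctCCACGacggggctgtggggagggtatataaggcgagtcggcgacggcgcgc

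Cells are not replicates of a condition, so the reads of a set were added up over its kept cells, and values are counts per 1e6 gene reads (CPM). The sums held 126.2, 121.4 and 141.0 times 1e6 reads in BCR-ABL replicates 1, 2 and 4, against 139.7 times 1e6 in the control. With 3 sets against 1, the control's own spread is not measured, and an exact permutation test could not give a p below 0.25. Set and condition cannot be told apart for the control. Summed early neutrophil markers stood at 67631, 63811 and 71686 CPM in BCR-ABL replicates 1, 2 and 4, against 57497 CPM in the control, and their genes were read in every set. The largest of them, Mpo, stood at 29162, 28649 and 31626 CPM across the BCR-ABL sets, against 30135 CPM in the control. For Mpo and Prtn3 the control lay inside the BCR-ABL range. Elane, Ctsg, Prss57, Gfi1, Cebpe and Ms4a3 were higher than the control in each BCR-ABL set. Summed monocyte markers (8 genes, none at 0) stood at 1281, 1377 and 753 CPM across the BCR-ABL sets, against 2732 CPM in the control. In sums over cells, fewer expressing cells and less RNA per cell cannot be told apart.

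All 38 genes passed the filter on low counts. In edgeR's quasi-likelihood test over 20324 genes none of them passed an adjusted p of 0.05, the same as for all genes (0% called, and 1459 genes at an unadjusted p under 0.05). At an unadjusted p under 0.05 there were 2 of 38 with a positive log2 fold change (5.26%), against 3.79% of all genes, and 0 with a negative one, against 3.39%. DESeq2 called 0 of 38, against 2.77% of all genes. The fold change was positive for 25 of the 38 genes, against 11019 of 20324 over all genes tested. Its median was 0.16, against 0.05 over all genes tested. All 3 BCR-ABL sets stood above the control for 10 genes (23.2% of all genes did) and below it for 6 (27.8% of all genes). For the other 22 genes the control lay among the BCR-ABL sets.

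The 3 BCR-ABL sets differed among themselves in 1 order. All 11 chaperones and helpers and all 6 oxidoreductases and isomerases, 17 of 17, were highest in replicate 2 and lowest in replicate 4 among the 3 BCR-ABL sets. Over all 38 genes 30 were highest in replicate 2 and 30 lowest in replicate 4, while 32.05% and 30.28% of all tested genes were. The summed ER genes took 1.97%, 2.25% and 1.49% of gene reads in BCR-ABL replicates 1, 2 and 4, against 1.83% in the control. The control thus sat inside the BCR-ABL range, and replicate 2 was 1.51-fold above replicate 4. The median ratio to the control was 0.15 and 0.25 on the log2 scale in replicates 1 and 2 and -0.22 in replicate 4, and 28, 31 and 10 of the 38 genes stood above the control in these sets. Median reads per cell were 1.65, 2.08 and 1.39 times 1e6 in BCR-ABL replicates 1, 2 and 4, against 1.20 times 1e6 in the control, so the set highest in chaperones was also the most deeply read. With the 290 cells of at least 674952 reads thinned to that number, an alternative added after seeing the data, the order was the same in 17 of 17 genes, and the shares were 1.87%, 2.18% and 1.45% in the BCR-ABL sets, against 1.79% in the control.

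**Figure D1:**
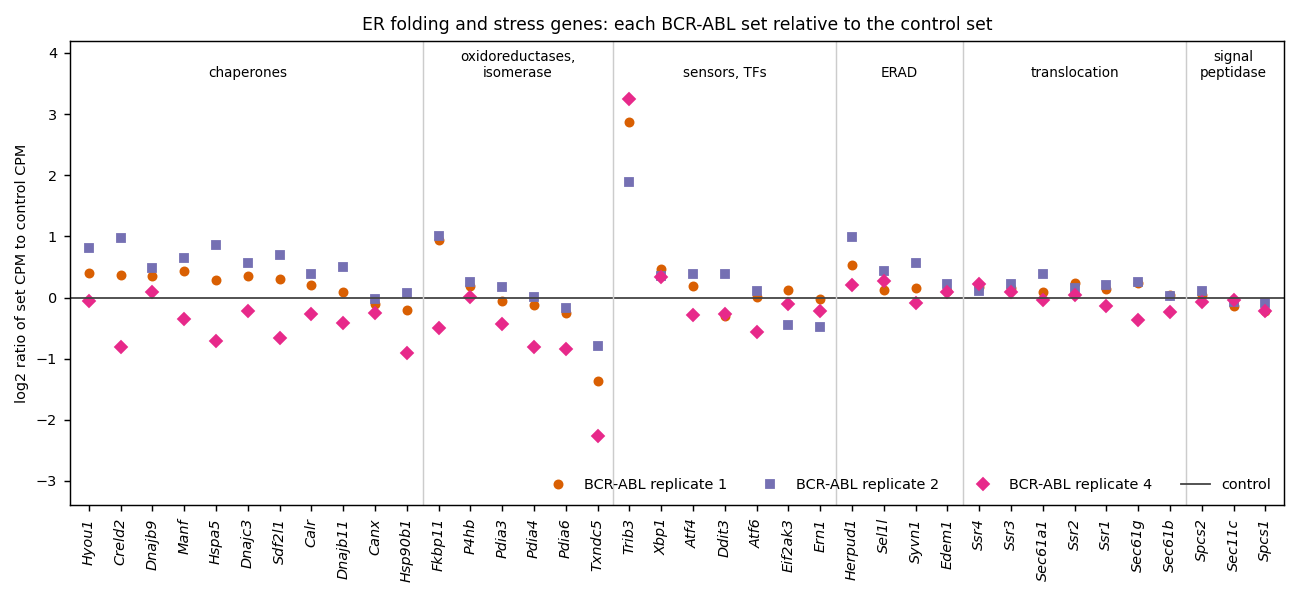
Log2 ratio of each BCR-ABL set's CPM to the control's CPM for the 38 genes, grouped by role and ordered by fold change. Points are the 3 BCR-ABL sets and the line at 0 is the control set. Among chaperones and oxidoreductases the squares of replicate 2 stand highest and the diamonds of replicate 4 lowest in 17 of 17 genes.

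Hspa5 encodes BiP, the main HSP70 of the ER lumen, which binds the 3 sensors at rest. It stood at 2053, 3030 and 1023 CPM in BCR-ABL replicates 1, 2 and 4, against 1674 CPM in the control, so the control lay inside a range in which replicate 2 exceeded replicate 4 by 2.96-fold. Its log2 fold change was 0.31 (SE 0.62). Creld2, a stress-induced folding factor, had the widest spread of the set, 3.43-fold between replicates 2 and 4.

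Calr encodes calreticulin, the lectin chaperone that holds newly glycosylated proteins, and had the highest level per kilobase of exon among the chaperones. It stood at 2375, 2686 and 1715 CPM across the BCR-ABL sets, against 2062 CPM in the control, with a log2 fold change of 0.15 (SE 0.28). Its membrane-bound partner Canx varied less, with 759, 804 and 684 CPM across the BCR-ABL sets, against 817 CPM in the control. All 3 BCR-ABL sets lay below the control for Canx, by a log2 value of -0.11 (SE 0.15).

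Hsp90b1 encodes GRP94, the HSP90 of the ER. It stood at 891, 1076 and 547 CPM in BCR-ABL replicates 1, 2 and 4, against 1027 CPM in the control, with a log2 fold change of -0.27 (SE 0.40); 15.7% of its exon length overlaps other annotated genes. Dnajb9, an HSP40 partner of BiP that returns it to IRE1, was the chaperone gene with all 3 BCR-ABL sets above the control, at 64.9, 71.2 and 54.1 CPM against 51 CPM. Its log2 fold change was 0.33 (SE 0.23), and edgeR gave it an adjusted p = 0.825. Among the 11 chaperones and helpers 9 fold changes were positive, with a median of 0.29 and a range from -0.27 to 0.45.

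The 6 oxidoreductases and isomerases had a median log2 fold change of -0.15, with 2 positive. P4hb, the protein disulfide isomerase that gave the family its name, had their highest level per kilobase and stood at 2215, 2313 and 1952 CPM across the BCR-ABL sets, against 1946 CPM in the control. Pdia4 stood at 557, 607 and 345 CPM across the BCR-ABL sets, against 604 CPM in the control. Pdia6, an isomerase that also limits IRE1 signalling, lay below the control in all 3 sets, at 957, 1017 and 640 CPM against 1146 CPM, a log2 fold change of -0.37 (SE 0.30).

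Txndc5, a disulfide isomerase with several thioredoxin domains, had the lowest fold change of the 38. It stood at 125, 187 and 66.9 CPM in BCR-ABL replicates 1, 2 and 4, against 322 CPM in the control, with no overlap between the groups. Its log2 fold change was -1.33 (SE 0.55), which did not pass (edgeR adjusted p = 0.720, unadjusted p = 0.0654; DESeq2 adjusted p = 0.109). The fold change lay between -1.72 and -1.02 in the 12 alternative fits, with adjusted p values between 0.109 and 0.949.

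Cells fell into a high and a low range of Txndc5. The median cell held 24.7, 137 and 2.02 CPM in BCR-ABL replicates 1, 2 and 4, against 221 CPM in the control. A level of 16 CPM, chosen after the values were seen, lies between these ranges. With cells thinned to 674952 reads, 60% (95% exact interval 47.1 to 72), 70.4% (56.4 to 82.0) and 46.9% (35.7 to 58.3) of cells reached it in BCR-ABL replicates 1, 2 and 4, against 88.9% (80.5 to 94.5) in the control. A read was seen in 76.9%, 87% and 55.6% of thinned BCR-ABL cells and in 98.9% of thinned control cells. The intervals cover the sampling of cells within 1 set only, not the spread between sets. SMART-seq2 reads carry no molecular identifiers.

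**Figure D2:**
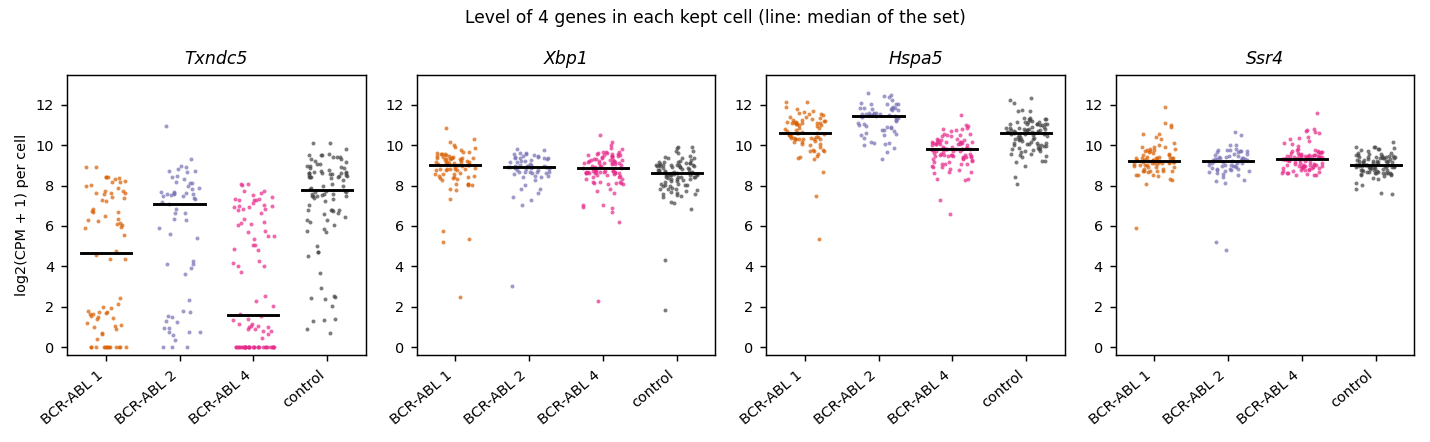
Level of Txndc5, Xbp1, Hspa5 and Ssr4 in every kept cell as log2(CPM + 1), with BCR-ABL replicates 1, 2 and 4 left of the control and a line at each set's median. Txndc5 cells split into a high and a low range, with medians of 24.7, 137 and 2.02 CPM across the BCR-ABL sets, against 221 CPM in the control. Hspa5 is highest in replicate 2 and lowest in replicate 4, and Ssr4 differs little between sets.

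Txndc5 moved with monocyte transcripts from cell to cell in 3 of the 4 sets, and not in BCR-ABL replicate 4. Its Spearman correlation with the summed monocyte markers was 0.64, 0.64 and -0.07 in BCR-ABL replicates 1, 2 and 4, against 0.67 in the control, over 76, 61, 92 and 94 cells. With Irf8, the transcription factor of the monocyte branch, it was 0.58, 0.63 and 0.24 in the BCR-ABL sets, against 0.67 in the control. Summed over cells, Irf8 stood at 258, 421 and 62.4 CPM in BCR-ABL replicates 1, 2 and 4, against 990 CPM in the control, the same order as Txndc5. Ighm, which also followed this order at 23.2, 128 and 22.7 CPM across the BCR-ABL sets, against 524 CPM in the control, made up nearly all of the summed plasma cell and B list, while Mzb1 was at 0 in the control. The part of cell type in the Txndc5 values was not tested. Antisense genes Bmp6 and Gm31834 overlap 11.9% of its exon length, and the strand setting is not given.

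Fkbp11, a prolyl isomerase of the ER membrane, did not share that order. It stood at 84.1, 88.3 and 30.9 CPM in BCR-ABL replicates 1, 2 and 4, against 43.8 CPM in the control, so replicate 4 lay below the control and both other sets above it. Its share of thinned cells at 16 CPM or above was 84.6%, 72.2% and 45.7% in the BCR-ABL sets, against 54.4% in the control. Its log2 fold change was 0.66 (SE 0.67).

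The 3 sensors had small fold changes. Ern1 stood at 56.3, 40.9 and 49 CPM across the BCR-ABL sets, against 56.9 CPM in the control. Eif2ak3 stood at 20.4, 13.7 and 17.3 CPM across the BCR-ABL sets, against 18.7 CPM in the control. Atf6 stood at 61.6, 65.7 and 41.6 CPM across the BCR-ABL sets, against 61.1 CPM in the control. Their log2 fold changes lay between -0.21 and -0.10, each smaller than its standard error.

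Xbp1, whose transcript is spliced by active IRE1, had the smallest p of the 38. It stood at 552, 508 and 502 CPM in BCR-ABL replicates 1, 2 and 4, averaging 521 ± 27.4 CPM (SD, n = 3), and at 399 CPM in the control. All 3 sets were above the control, with a spread between them smaller than their distance from it. The log2 fold change was 0.40 (SE 0.14), with an edgeR adjusted p = 0.669 and an unadjusted p = 0.0382. It lay between 0.34 and 0.44 in the 12 alternative fits, with adjusted p values between 0.275 and 0.957. Gene counts do not separate spliced from unspliced Xbp1. Xbp1 had the highest level per kilobase among the sensors and factors, yet it followed the chaperones weakly over cells: its correlation with Hspa5 was 0.10, -0.02 and 0.06 in the BCR-ABL sets, against 0.31 in the control.

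Atf4, the factor translated when PERK is active, stood at 371, 427 and 269 CPM across the BCR-ABL sets, against 328 CPM in the control. Ddit3, encoding the pro-apoptotic factor CHOP, stood at 16.6, 26.8 and 16.9 CPM across the BCR-ABL sets, against 20.4 CPM in the control, with a log2 fold change of 0.00 (SE 0.38); a second annotated Ddit3 entry shares 6.66% of its 50-base stretches. For both genes the control lay inside the BCR-ABL range.

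Trib3, a pseudokinase gene that CHOP and ATF4 induce, had the largest positive fold change but rested on a handful of cells. It stood at 0.991, 0.503 and 1.30 CPM in BCR-ABL replicates 1, 2 and 4, against 0.136 CPM in the control. These were 125, 61 and 183 reads in 5, 3 and 3 BCR-ABL cells and 19 reads in 1 control cell. A single cell held 39.2%, 91.8% and 76.5% of the reads in the BCR-ABL sets. The log2 fold change was 2.78 (SE 1.04; edgeR adjusted p = 0.694, unadjusted p = 0.0484), with adjusted p values between 0.313 and 0.950 over the 11 alternatives that held it. With cells thinned, 7.69%, 3.70% and 2.47% of cells had a read in the BCR-ABL sets, against 1.11% in the control. Exact intervals over cells were 2.54 to 17, 0.452 to 12.7 and 0.300 to 8.64 in the BCR-ABL sets. They overlapped that of the control, 0.0281 to 6.04, and covered only the sampling of cells within a set.

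All 4 genes of ER-associated degradation had a positive fold change, with a median of 0.28. Herpud1, which gathers the degradation complex, had their highest level per kilobase and stood at 315, 433 and 251 CPM in BCR-ABL replicates 1, 2 and 4, against 217 CPM in the control. All 3 sets lay above the control, with a log2 fold change of 0.64 (SE 0.35; edgeR adjusted p = 0.790). Sel1l, the adaptor of the ubiquitin ligase, stood at 104, 130 and 115 CPM across the BCR-ABL sets, against 95.9 CPM in the control. Edem1, a mannosidase-like lectin, stood at 175, 189 and 174 CPM across the BCR-ABL sets, against 163 CPM in the control. The ligase Syvn1 stood at 55.9, 73.5 and 47.0 CPM across the BCR-ABL sets, against 49.9 CPM in the control, which lay inside their range.

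Translocation genes had log2 fold changes from -0.03 to 0.19, with 6 of 7 positive. Ssr2, a subunit of the translocon-associated protein complex with the highest level per kilobase here, stood at 751, 711 and 655 CPM across the BCR-ABL sets, against 635 CPM in the control. Sec61b, the beta subunit of the channel, stood at 230, 229 and 189 CPM across the BCR-ABL sets, against 224 CPM in the control; 41% of its 50-base stretches also occur in pseudogenes, so its counts are uncertain. Ssr4, the delta subunit, stood at 609, 579 and 630 CPM across the BCR-ABL sets, averaging 606 ± 25.9 CPM (SD, n = 3), and at 538 CPM in the control. Its log2 fold change was 0.19 (SE 0.12; edgeR adjusted p = 0.822). Ssr4 lies on the X chromosome, and the sets differ in the X-linked RNA Xist (324, 0 and 0.156 CPM across the BCR-ABL sets, 461 CPM in the control). The part of that difference in the Ssr4 values was not tested.

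Of the signal peptidase subunits, Spcs1 had the highest level per kilobase. It stood at 195, 215 and 196 CPM across the BCR-ABL sets, against 228 CPM in the control, all 3 sets below, with a log2 fold change of -0.16 (SE 0.14); the antisense gene Glt8d1 overlaps 16.3% of its exon length. Sec11c, a catalytic subunit, also lay below in all 3 sets, by a log2 value of -0.06 (SE 0.12). Spcs2 had a log2 fold change of 0.05 (SE 0.14).

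In single cells 26 of the 38 genes had a read in at least 95% of the thinned cells of every set. The 12 others were Trib3, Eif2ak3, Ddit3, Txndc5, Fkbp11, Atf6, Ern1, Creld2, Dnajb9, Hyou1, Sel1l and Syvn1. Eif2ak3 was read in 61.5%, 44.4% and 48.1% of BCR-ABL cells and 50% of control cells.

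The granule protease load of a cell was taken as the summed CPM of Elane, Prtn3, Ctsg and Prss57, proteases that are folded in the ER and stored in primary granules. The median load per cell was 36806, 30824 and 39416 CPM in BCR-ABL replicates 1, 2 and 4, against 25998 CPM in the control. The summed ER genes were then set against the load over the cells of each set. The Spearman correlation was -0.54, -0.22 and -0.50 in BCR-ABL replicates 1, 2 and 4, over 76, 61 and 92 cells, and 0.34 in the control, over 94 cells. A larger share of protease reads thus went with a smaller summed share of ER reads in the 3 BCR-ABL sets, most weakly in replicate 2. In the control set it went with a larger summed share of ER reads. Cells of a set share their source, and CPM values share a denominator, so these are descriptions of 4 sets and carry no p.

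**Figure D3:**
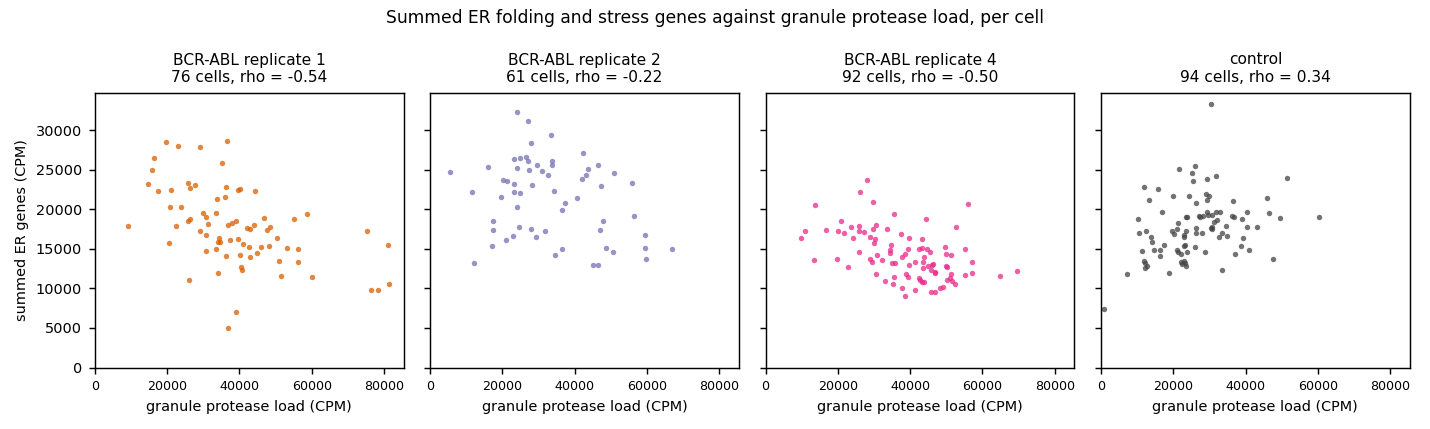
Summed CPM of the 38 ER genes on the vertical axis against the granule protease load in CPM on the horizontal axis, 1 point per kept cell, in BCR-ABL replicates 1, 2 and 4 and the control. The cloud slopes down in the BCR-ABL panels (rho -0.54, -0.22 and -0.50) and up in the control panel (rho 0.34).

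Across 7 other ways of computing it, the correlation stayed negative in each BCR-ABL set and positive in the control. The value of replicate 2 was nearest to 0 with Mpo, the myeloperoxidase gene, added to the load, which gave -0.38, -0.12 and -0.42 in the BCR-ABL sets, against 0.40 in the control. Leaving the load genes out of the denominator gave -0.50, -0.16 and -0.46 in the BCR-ABL sets, against 0.38 in the control. Holding the reads and genes of the cell fixed gave -0.37, -0.17 and -0.43 in the BCR-ABL sets, against 0.35 in the control. Holding the monocyte markers fixed gave -0.45, -0.22 and -0.50 in the BCR-ABL sets, against 0.31 in the control.

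The number of genes read in a cell moved with both measures in the BCR-ABL sets. The spike-in share was set beside the ER genes only. The summed ER genes correlated with the number of genes read in a cell at 0.71, 0.52 and 0.32 in BCR-ABL replicates 1, 2 and 4, against 0.19 in the control. The load correlated with it at -0.47, -0.17 and -0.43 in the BCR-ABL sets, against -0.02 in the control. Against the spike-in share of a cell, which falls as its RNA content grows, the ER genes stood at -0.71, -0.57 and -0.38 in the BCR-ABL sets, against -0.25 in the control. The adjusted values above hold the reads and genes of a cell fixed, not its RNA content, whose part was not tested.

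Taken singly, the 38 genes had a median correlation with the load of -0.19, 0.02 and -0.15 in BCR-ABL replicates 1, 2 and 4, against 0.14 in the control. Over all genes read in 25% of cells the median was -0.10, -0.03 and -0.07 in the BCR-ABL sets, against -0.01 in the control. Positive values numbered 6, 22 and 8 of 38 in the BCR-ABL sets, against 32 in the control. Of all genes read in 25% of cells, 26.9%, 43.4% and 31.9% were positive in the BCR-ABL sets, against 47.6% in the control. Replicate 2 lay between the other BCR-ABL sets and the control, and its sign was not stable: the median was -0.03 with 17 positive genes when Mpo joined the load, -0.03 with 16 in thinned cells and -0.01 with 18 under the stricter well filter.

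By the mean over the 4 sets Ssr4 followed the load most closely, with correlations of 0.37, 0.36 and 0.19 in BCR-ABL replicates 1, 2 and 4, against 0.36 in the control. It and Sec11c were positive in each set, as was Ddit3 near 0. Sec61b came next, with 0.07, 0.21 and -0.03 in the BCR-ABL sets, against 0.44 in the control. Spcs1 had 0.25, -0.07 and 0.25 in the BCR-ABL sets, against 0.25 in the control. Dnajb9 had -0.01, 0.30 and 0.02 in the BCR-ABL sets, against 0.16 in the control. Ssr4, Sec61b and Spcs1 serve protein entry and signal peptide removal, and Dnajb9 is a partner of BiP.

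Txndc5 stood at the other end, with -0.50, -0.45 and -0.57 in the BCR-ABL sets, against -0.35 in the control. Hsp90b1 had -0.58, -0.39 and -0.37 in the BCR-ABL sets, against -0.02 in the control, and Pdia4 had -0.52, -0.30 and -0.37 in the BCR-ABL sets, against -0.02 in the control. Calr had -0.59, -0.30 and -0.60 in the BCR-ABL sets, against 0.23 in the control, the widest gap between condition labels among these 4. Hspa5 had -0.53, -0.14 and -0.34 in the BCR-ABL sets, against 0.24 in the control.

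**Figure D4:**
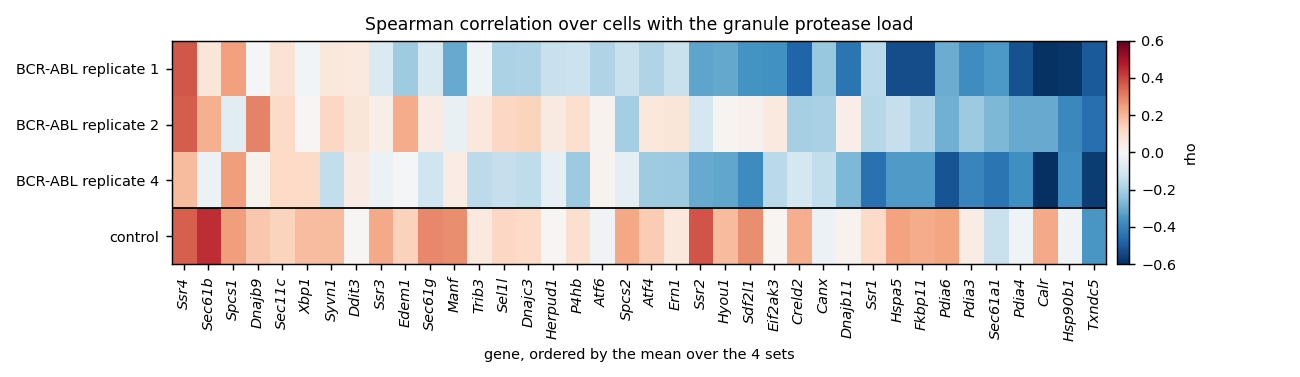
Spearman correlation over cells of each ER gene with the granule protease load, with the 3 BCR-ABL sets above the control and genes ordered by their mean over the 4 sets. Red is positive and blue negative. Positive values number 6, 22 and 8 of 38 in the BCR-ABL rows and 32 in the control row, and Ssr4 and Txndc5 keep 1 sign in each row.

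Because the sets differ in load, levels were also read at 1 common load of 33441 CPM, the median of all kept cells, from a straight line per set on the log2(CPM + 1) scale. That load lies above the upper quartile of the control cells, 32074 CPM. At the common load the median difference, BCR-ABL minus control, over the 38 genes was -0.14, with 10 positive and 12 genes below the control in all 3 sets. As plain means over cells the median difference was -0.01, with 18 positive and 7 genes below the control in all 3 sets. For Xbp1 the BCR-ABL mean was 8.78 at the common load and the control 8.79, a difference of -0.01, while the means over cells differed by 0.30. For Txndc5 the difference was -2.46 at the common load and -2.87 as means over cells. For Hspa5 it was -0.09 at the common load and 0.02 as means over cells.

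Chaperones and oxidoreductases varied together from cell to cell more than sensors and factors did. The median correlation between pairs of chaperones was 0.44, 0.29 and 0.21 in BCR-ABL replicates 1, 2 and 4, against 0.25 in the control. Pairs of oxidoreductases and isomerases had 0.45, 0.43 and 0.39 in the BCR-ABL sets, against 0.26 in the control. Pairs of sensors and factors had 0.07, 0.01 and 0.04 in the BCR-ABL sets, against 0.10 in the control. Pairs of any genes read in 25% of cells, not matched for level, had 0.07, 0.05 and 0.04 in the BCR-ABL sets, against 0.01 in the control. The sensors and factors thus stood above them in the control. Trib3 was read in few cells, which limits its correlations. Eif2ak3, Ddit3, Atf6 and Ern1 were also read in under 95% of the thinned cells of at least 1 set. So were Creld2, Dnajb9, Hyou1, Txndc5 and Fkbp11 among the chaperones and oxidoreductases. The part of level and detection in these correlations was not tested.

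By the mean over the 4 sets the closest pair of all 703 was Calr and Pdia3, the lectin chaperone and the isomerase that binds it, at 0.74, 0.68 and 0.64 in BCR-ABL replicates 1, 2 and 4, against 0.39 in the control. Calr with Pdia6 followed at 0.60, 0.71 and 0.59 in the BCR-ABL sets, against 0.45 in the control, and Hspa5 with Hsp90b1 at 0.68, 0.70 and 0.45 in the BCR-ABL sets, against 0.47 in the control. Both exceeded Calr with Pdia3 in replicate 2 and in the control. By the mean over sets Ssr4 ran against most chaperones, with a negative mean for 29 of its 37 partners and the lowest with Pdia3 (-0.32). Ssr4 with Pdia3 had -0.42, -0.40 and -0.36 in the BCR-ABL sets, against -0.11 in the control. Ssr4 with Calr had -0.41, -0.40 and -0.25 in the BCR-ABL sets, against 0.05 in the control. Of its 8 positive partners 4 were small subunits of protein entry and signal peptide removal, led by Sec61b (0.39) and followed by Sec61g, Spcs1 and Sec11c. The other 4, Dnajb9, Manf, Ddit3 and Atf4, stood below these and no higher than 0.086. Of these, Sec61g shares 20.5% of its 50-base stretches with pseudogenes, and Sec61b more, as given above.

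The 8 genes with the ER stress element printed above had a median pairwise correlation of 0.40, 0.32 and 0.30 in BCR-ABL replicates 1, 2 and 4, against 0.26 in the control. The 24 genes with a promoter and no such element had 0.11, 0.07 and 0.06 in the BCR-ABL sets, against 0.05 in the control. Their median correlation with the load was -0.39, -0.20 and -0.25 in the BCR-ABL sets, against 0.20 in the control for genes with the element, and -0.13, 0.05 and -0.15 in the BCR-ABL sets, against 0.13 in the control for those without. Of the 8, 7 are chaperones or oxidoreductases, and 8 genes of these roles have a promoter without the element. Within these roles, an alternative added after seeing the data, the pairwise medians lay closer. The 7 with the element had 0.50, 0.47 and 0.32 in the BCR-ABL sets, against 0.27 in the control, and the 8 without it had 0.44, 0.39 and 0.29 in the BCR-ABL sets, against 0.12 in the control. Against the load, the 7 had medians of -0.48, -0.20 and -0.34 in the BCR-ABL sets, against 0.22 in the control. The 8 without the element had -0.40, -0.08 and -0.35 in the BCR-ABL sets, against 0.07 in the control. These load medians lay closer in the BCR-ABL sets, but not in the control.

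**Figure D5:**
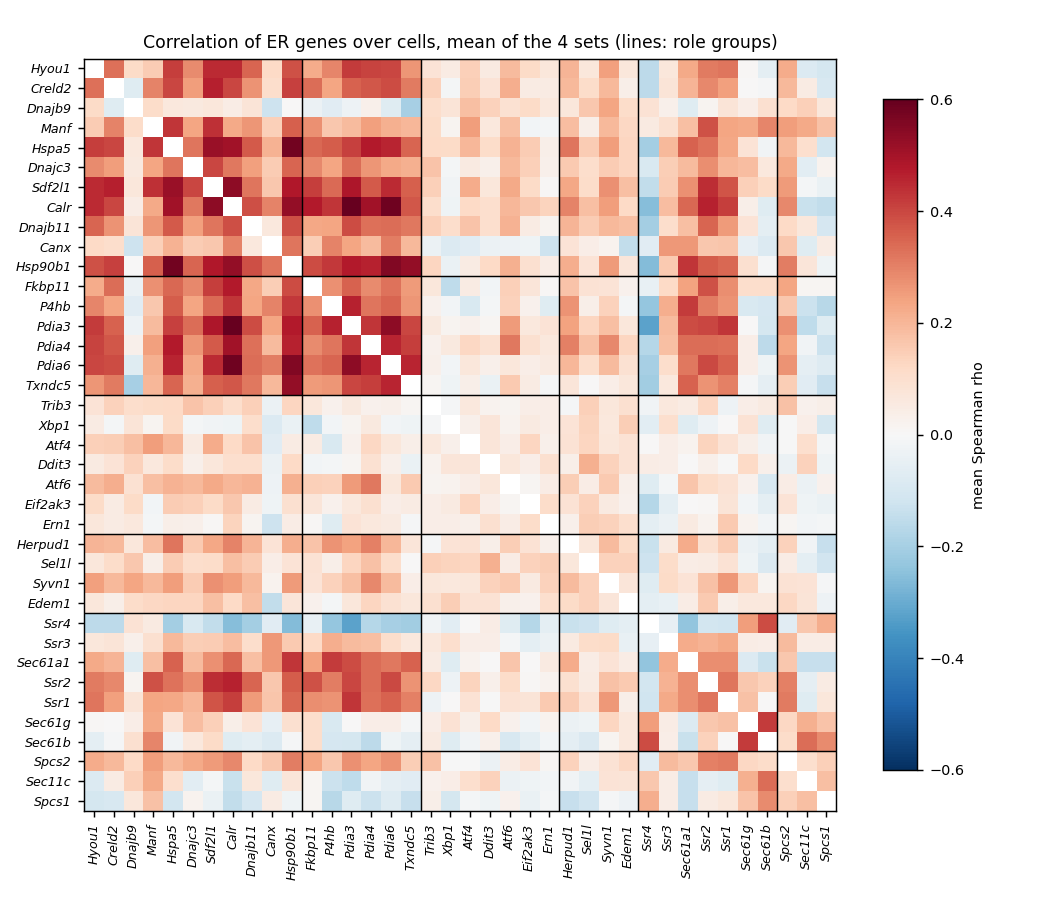
Spearman correlation over cells between the 38 ER genes, as the mean over the 4 sets, on both axes in the same order with lines between role groups. Red is positive and blue negative. The block of chaperones and oxidoreductases is red, with Calr and Pdia3 at 0.61, while the row of Ssr4 is mostly blue and the sensors are pale.

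The further genes of the pathway were 64, all of which were tested: 37 fold changes were positive, against 11019 of 20324 over all genes. Their median was 0.06, against 0.05 over all genes. At an unadjusted p under 0.05 there were 4 with a positive fold change and 1 with a negative one, and edgeR called 0 after adjustment (percentages over all genes 3.79, 3.39 and 0). Mcfd2, a cargo receptor subunit between ER and Golgi, stood at 233, 216 and 244 CPM across the BCR-ABL sets, against 166 CPM in the control (log2 fold change 0.50, SE 0.15; edgeR adjusted p = 0.648). Stt3b, a catalytic subunit of N-glycosylation, stood at 289, 307 and 313 CPM across the BCR-ABL sets, against 233 CPM in the control (log2 fold change 0.40, SE 0.13; edgeR adjusted p = 0.669). Dnajc10, an ER disulfide reductase, stood at 130, 153 and 130.5 CPM across the BCR-ABL sets, against 197 CPM in the control (log2 fold change -0.49, SE 0.17; edgeR adjusted p = 0.669). For these 3 genes the groups did not overlap, as for 19 of the 64 with all 3 BCR-ABL sets above the control (29.7%, against 23.2% of all genes) and 13 with all 3 below (20.3%, against 27.8%).

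DESeq2 called 2 of the 64 genes, Asns and Chac1, both known ATF4 targets. That share, 3.12%, is near the 2.77% it called of all genes. Asns, asparagine synthetase, stood at 65.8, 48.8 and 37.3 CPM across the BCR-ABL sets, against 22.5 CPM in the control, with a log2 fold change of 1.20 (SE 0.40; edgeR adjusted p = 0.669, DESeq2 adjusted p = 0.0438). It was read in 81.6%, 77% and 52.2% of BCR-ABL cells and 50% of control cells, before thinning. Chac1, a glutathione-degrading enzyme, had 68, 494 and 463 reads in 4, 6 and 7 BCR-ABL cells and 1 read in 1 control cell. The ratio of its summed reads, scaled to depth, was 369 with an exact counting interval from 66 to 14570, which covers the counting of reads alone. A single cell held 88.2%, 38.9% and 38.7% of the reads in the BCR-ABL sets. The edgeR adjusted p was 0.637 (DESeq2 adjusted p = 6.54e-04). Atf3, another stress factor, stood on the other side at 1.93, 0.923 and 0 CPM across the BCR-ABL sets, against 6.77 CPM in the control; it was chosen for mention after its value was seen. It was read in 7.89% and 6.56% of cells in BCR-ABL replicates 1 and 2 and in 8.51% of control cells, and 1 cell held 53% of the control's reads. Its log2 fold change had an edgeR adjusted p = 0.837.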

How the data were processed

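The deposited tables give raw read counts for each Ensembl gene and well, which the authors made with GSNAP and HTSeq 0.5.3p3 on mm10, per the submitters' processing notes; SMART-seq2 cDNA and Nextera XT libraries are per the labels' protocols. The annotation release and strand setting are not given. Gene rows held 44.9% of reads, spike-ins 0.26%, and reads outside features, ambiguous or not aligned 7.67%, 6.24% and 40.9%; only gene rows entered library sizes. Symbols came from GENCODE vM21 (45143 of 46078 rows).

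Kept wells were summed per set and tested with edgeR 4.0.16 (TMM, filterByExpr, quasi-likelihood F test, Benjamini-Hochberg over all genes, threshold 0.05) in R 4.3.3. The 2 residual degrees of freedom come from the 3 BCR-ABL sets, so the control is assumed to vary like them; the labels do not say that sets are separate animals, so p-values measure only the spread between these sets. The common biological coefficient of variation was 0.68. DESeq2 1.42.0 and limma 3.58.1 (voom) were alternatives. On simulated data the fits recovered most planted changes where sets varied little. With a spread near the measured one edgeR called no planted change, and DESeq2 also called unchanged genes. Kept cells had 50434 to 4758711 gene reads. Thinning to 674952 reads, the 10 percentile, left 290 cells. Correlations over cells are Spearman's, per set, without a test. No 2 kept wells had identical counts, and no doublet caller was run, since wells were sorted to hold 1 cell.

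Values in every set are given for genes with an unadjusted p under 0.05, the 4 highest and 4 lowest mean load correlations, the highest per kilobase in each role group, and the sensors and factors; others are given to complete a role group, and in the further list genes with an unadjusted p under 0.05. The genes and lists were chosen with earlier results of these data known. Of the marker lists, erythroid and megakaryocyte markers stayed at or below 5.46 and 29.4 CPM in each set. Basophil and mast cell markers lay between 266 and 515 CPM, dendritic markers between 84.8 and 159 CPM, and T and NK markers between 889 and 1397 CPM. Nkg7 made up nearly all of the T and NK sum, with Cd3e, Cd3g and Il7r at or below 0.27 CPM in each set. Early progenitor markers stood at 197, 225 and 231 CPM across the BCR-ABL sets and 490 CPM in the control, and late neutrophil markers at 1009, 631 and 1005 CPM across the BCR-ABL sets and 214 CPM in the control. Most of the late neutrophil sum was S100a8 and Lcn2, at 143 and 46.1 CPM in the control. Lcn2, S100a8, S100a9 and Camp were higher than the control in each BCR-ABL set, while Ngp, Mmp8 and Ltf were not. Most of the progenitor sum was Cd34, at 440 CPM in the control. Cd34, Meis1 and Sox4 were lower than the control in each BCR-ABL set, while Flt3, Hlf and Mecom were higher, Mecom with few reads. One well of BCR-ABL replicate 4 held 99.4% of that set's Prg2 reads, an eosinophil marker.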

Additional observations from a re-analysis of the deposited data

How the results depend on the processing

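No ER gene passed an adjusted p of 0.05 in any of the 12 alternative fits, where the smallest adjusted p was 0.109 by DESeq2, 0.539 by limma-voom and 0.570 among the edgeR fits. Of the 18 ER genes named by rule, 13 kept the sign of their fold change in each fit that held them; Trib3 was absent from that on genes read in 25% of cells. The number with a positive fold change at an unadjusted p under 0.05, 2 in the reported fit, was 0 without a filter on low counts, and 1 with genes read in 25% of cells, with limma-voom and with thinned cells. Leaving out 1 BCR-ABL set gave 1 such gene without replicate 2 and 0 without replicate 1. Without replicate 4 there were 8 (Fkbp11, Manf, Xbp1, P4hb, Dnajc3, Calr, Herpud1 and Dnajb9), each lowest in replicate 4 among the BCR-ABL sets. Over all genes, 1631 of 19235 had an unadjusted p under 0.05 in either direction without replicate 4. These numbers were 1507 of 19878 without replicate 2 and 1052 of 19789 without replicate 1, against 1459 of 20324 as reported. The number of ER genes with a negative fold change at that p was 0 as reported. It was 1 (Txndc5) without a filter, with genes read in 25% of cells, with DESeq2 and with limma-voom. It also depended on the BCR-ABL set left out. The median fold change, 0.16 as reported, was 0.12 without replicate 1, 0.01 without replicate 2 and 0.24 without replicate 4, and counts of positive genes stayed within 1.5 times. The cause of these shifts was not tested, and fits with 1 set left out also rest on fewer sets. Leaving out the well rich in Prg2, an alternative chosen after seeing the data, left these counts as reported.

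The median correlation with the load in BCR-ABL replicate 1, -0.19, was -0.056 given reads and genes, and -0.029 with the load genes also left out of the denominator, a choice made after seeing the data. For the summed genes it was -0.54 and became -0.37 given reads and genes, also chosen after seeing the data. The share of cells with a Txndc5 read, 87% in BCR-ABL replicate 2 and 98.9% in the control when thinned, was 95.1% in replicate 2 and 100% in the control without thinning, where cells differ in depth. No paired analysis was possible because the control is 1 set and the sets share no numbers that pair them.

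With 3 sets against 1, a gene that varies between BCR-ABL sets as widely as the chaperones do has little chance to pass, and a missed threshold does not show equal levels. A single control set cannot separate condition from set. CPM are shares, so a rise of protease reads lowers the share of all other genes. Reads are not molecules, and sums weigh deep cells more than shallow ones.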
